A study of Mus musculus with 5 samples.

Results

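NEUROD2 peaks were examined around 10 genes of the Notch pathway. The genes were taken by name and are 2 receptors (Notch1, Notch2), 4 ligands (Dll1, Dll3, Jag1, Jag2) and 4 nuclear effectors (Hes1, Hes5, Hes6, Hey1) among 21938 protein-coding genes of the annotation. Every peak of 3 NEUROD2 antibodies that overlapped a gene body or the 50 kb on each side was taken, which covered 1.28 Mb. These spans held 23 peaks, and merging peaks that shared at least 1 bp gave 17 of the 12637 merged sites of the genome.

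ChIP-Seq recovers and sequences the DNA fragments that an antibody against a protein pulls down. Here the tissue was cerebral cortex of untreated BALB/c mice at postnatal day 0 (P0), and antibody 1 (ab168932), antibody 2 (ab104430) and antibody 3 (ab109406) gave 1 library each. Cortices of littermates were pooled. The tissue holds all cell types of the cortex, so the peaks themselves do not show the cell type. The paper states that only excitatory neurons express Neurod2. The antibodies were treated as 3 replicates (n = 3). It is not stated whether each had its own pool of mice, so their spread covers the antibody and the library and may be technical. All lists were called against the same library of a GFP antibody. The score of a peak is minus 10 times the log10 of its p from MACS. The lists held 5202, 11196 and 3164 peaks for antibodies 1, 2 and 3, no read depth is given in them, and scores were not scaled between antibodies. Sites with peaks of all 3 antibodies, called shared sites here, numbered 2088, and 52.2% of the merged sites had a peak of antibody 2 only.

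Notch signalling passes between neighbouring cells. A Delta or Jagged ligand on the sending cell leads to cleavage of a Notch receptor on the receiving cell, and the freed intracellular part enters the nucleus, where it joins the DNA-binding protein RBPJ and switches on Hes and Hey genes. HES1, HES5 and HEY1 are bHLH repressors that hold neural progenitors back from differentiation, whereas HES6 is a family member that rises in differentiating neurons and opposes HES1. Proneural bHLH factors are known to activate Delta ligands in cells that are about to become neurons. NEUROD2 is a bHLH factor of differentiating cortical neurons and binds the E-box, CANNTG, where N is any base.

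Across the group, binding by all 3 antibodies was found at Hes6 and near Dll1, and at no other member. Hes6 had 2 shared sites, both at its transcription start sites (TSSs), and Dll1 had 1 shared site in intergenic sequence. The remaining 14 sites had a peak of antibody 2 only, and no site had peaks of exactly 2 antibodies. No peak of any antibody lay in the spans of Jag1 and Hes5. A shared site was therefore found for 2 of 10 genes, against 15.6% of all protein-coding genes treated in the same way, and a site of any antibody for 8 of 10 genes, against 55.3% of all genes. The first share is close to that of all genes.

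**Figure D1:**
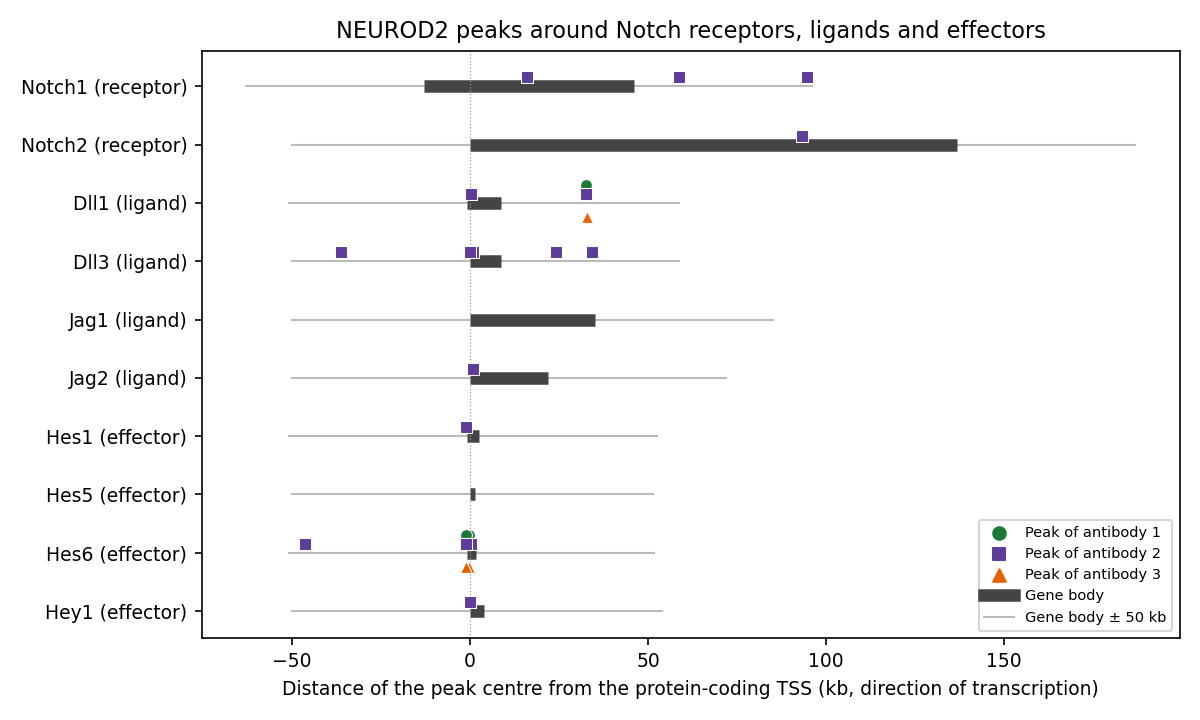
Peaks of each antibody around the 10 genes, plotted by the distance of the peak centre from the protein-coding TSS in kb, with the gene body as a thick bar and the 50 kb added on each side as a thin line. The 3 antibodies coincide at Hes6 and at the site 32598 bp downstream of the Dll1 start, where circles and triangles appear, while every other point is a square of antibody 2. Points less than about 1 kb apart, as at Hes6 and Dll3, cover each other.

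The 3 shared sites are shown first as sequence, since they carry the binding that all antibodies reported. Each line gives the reference sequence (GRCm38/mm10, strain C57BL/6J, whereas the mice were BALB/c) on the strand of the gene, which is the minus strand in each case, from the stretch covered by all antibodies. Capitals mark E-boxes. The Hes6 distal site is shown at chr1:91414162-91414461, the Hes6 proximal site at chr1:91413321-91413620 and the Dll1 site at chr17:15343216-15343444.
Hes6 distal site: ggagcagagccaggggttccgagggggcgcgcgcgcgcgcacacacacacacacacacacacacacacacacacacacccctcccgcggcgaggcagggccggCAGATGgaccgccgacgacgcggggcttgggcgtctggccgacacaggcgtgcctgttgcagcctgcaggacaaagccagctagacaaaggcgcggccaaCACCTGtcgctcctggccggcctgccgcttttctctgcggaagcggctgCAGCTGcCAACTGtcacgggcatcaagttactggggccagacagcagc
Hes6 proximal site: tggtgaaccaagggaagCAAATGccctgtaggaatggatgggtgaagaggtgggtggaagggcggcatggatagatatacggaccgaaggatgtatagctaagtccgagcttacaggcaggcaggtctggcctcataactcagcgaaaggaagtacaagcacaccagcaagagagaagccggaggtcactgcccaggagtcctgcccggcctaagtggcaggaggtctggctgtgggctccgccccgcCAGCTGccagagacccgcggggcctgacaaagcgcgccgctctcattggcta
Dll1 site: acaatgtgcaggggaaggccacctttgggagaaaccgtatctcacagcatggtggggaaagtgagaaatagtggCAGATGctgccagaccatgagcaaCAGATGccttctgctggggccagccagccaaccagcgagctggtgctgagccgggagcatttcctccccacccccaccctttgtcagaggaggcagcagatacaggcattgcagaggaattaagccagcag

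The sequence of the Hes6 distal site held 4 E-boxes, each of a different form, downstream of a CA repeat. The last pair is separated by a single base, and the E-box nearest to the repeat is CAGATG. The proximal sequence held 2 E-boxes of different forms. The Dll1 sequence held 2 E-boxes, both CAGATG, the form that NEUROD2 is known to prefer.

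Hes6 had the highest scores of the group. The gene lies on the minus strand of chromosome 1 (chr1:91411483-91414038, ENSMUSG00000067071), and its annotation holds a protein-coding TSS at position 91413222 and a distal TSS, of a transcript without a coding sequence, at position 91414038. The distal site covered chr1:91413924-91414654 (731 bp), with a score of 928.49 for antibody 1, 1236.8 for antibody 2 and 425.2 for antibody 3. All 3 scores were near the top of their lists: 98.4% ± 1.23 (SD, n = 3) of the peaks of an antibody scored lower. Among the 645 shared sites within 1000 bp of a TSS, this site ranked 14, 21 and 25 with antibodies 1, 2 and 3, or 20 ± 5.57 on average (SD, n = 3). The centres of its peaks lay 1052.5, 1083.5 and 1090 bp upstream of the protein-coding TSS, within 37.5 bp of each other.

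The distance of this site from Hes6 depended on the TSS used. The midpoint lay 1067 bp upstream of the protein-coding TSS of Hes6 but 251 bp upstream of the distal TSS, so that in GENCODE it fell within 1000 bp of a Hes6 start. In the deposited table of shared sites the same interval, with a summed score of 2590.49 and rank 69 of 2071, is listed as intergenic and carries no gene. Why it is listed so was not tested. The closest protein-coding TSS was that of Hes6.

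The Hes6 proximal site, 71 bp away, covered chr1:91412199-91413852 (1654 bp). Its scores were 253.96, 700.41 and 219.31 for antibodies 1, 2 and 3, above 91.7% ± 5.46 (SD, n = 3) of the peaks of each list. It extended over the protein-coding TSS, and the deposited table assigns it to the promoter of Hes6. The antibodies differed here in where the peak lay: antibodies 1 and 3 had peaks of 518 and 417 bp centred 250.5 and 249 bp upstream of the protein-coding TSS, whereas the peak of antibody 2 ran from 630 bp upstream to 1023 bp downstream and was centred 196.5 bp downstream. This peak of antibody 2 was number 9 by length of 11196.

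**Figure D2:**
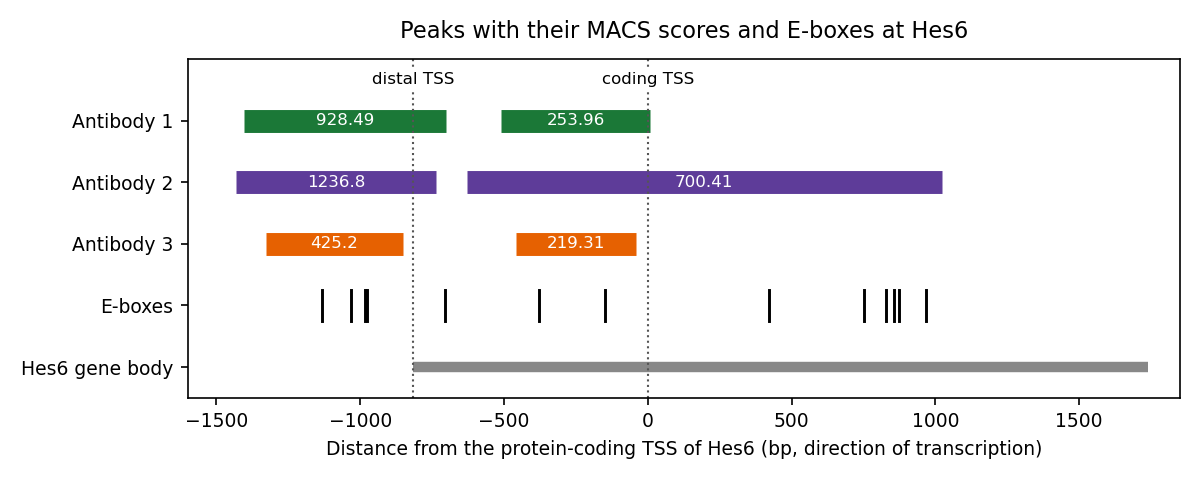
Peaks of the 3 antibodies at Hes6, labelled with their MACS scores, with E-boxes of the merged sites as ticks and the gene body as a grey bar, by distance in bp from the protein-coding TSS in the direction of transcription. All 3 antibodies show 1 peak at the distal TSS or, with antibody 3, just upstream of it. A separate peak lies nearer to the coding TSS. This second peak is centred upstream of the coding TSS with antibodies 1 and 3. It reaches 8 bp downstream with antibody 1 and 1023 bp downstream with antibody 2.

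Hes6 was the 1 gene of 10 with a shared site within 1000 bp of a TSS, against 2.82% of all protein-coding genes. At least 2 shared sites at the TSSs of a single gene were found for 0.0866% of all genes, that is 19 genes, of which Hes6 was 1. The 2 Hes6 sites lie 71 bp apart and count as 2 because merging required an overlap. Merging across gaps was not tried. Neighbouring shared sites of this kind were uncommon: 54 of 2088 shared sites (2.59%) had another within 100 bp. When the scores of the shared sites at the TSSs of a gene were added, the 2 sites of Hes6 reached 3764.17. This was rank 9 of the 619 genes that had any, against a median of 594.38. The rank was 10, 8 and 12 when antibodies 1, 2 and 3 were taken alone (10 ± 2, SD, n = 3).

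The shared site of Dll1, a Delta ligand of neural progenitors and newborn neurons, had much lower scores. It lay in intergenic sequence at chr17:15343105-15343652 (548 bp), 32598 bp downstream of the protein-coding TSS, and Dll1 was the protein-coding gene with the closest TSS. Scores were 97.57, 202.72 and 75.49 for antibodies 1, 2 and 3, and 62.0% ± 16.8 (SD, n = 3) of the peaks of each list scored lower. The deposited table lists it as intergenic with no gene, with a summed score of 375.78 and rank 1618 of 2071.

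With each antibody the order of the 3 sites was the same. The Hes6 distal site scored 9.52, 6.10 and 5.63 times as high as the Dll1 site with antibodies 1, 2 and 3, and the Hes6 proximal site 2.60, 3.46 and 2.91 times as high. The distal site scored 3.66, 1.77 and 1.94 times as high as the proximal site. Since 3 antibodies cannot give a p below 0.25 in an exact two-sided sign-flip test, these ratios are given as values. On the log2 scale they were 2.78 ± 0.41, 1.57 ± 0.21 and 1.22 ± 0.57 in the same order (mean ± SD, n = 3). A ratio of scores is not a ratio of bound protein.

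**Figure D3:**
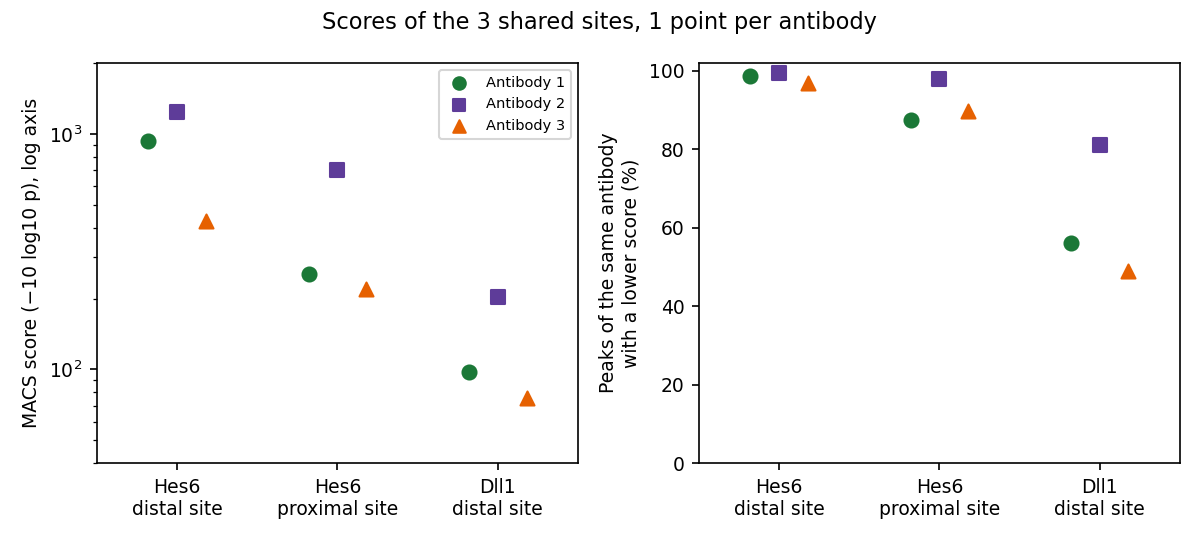
MACS scores (left, log axis) and percentages of peaks of the same antibody with a lower score (right, axis from 0) for the 3 shared sites, with 1 point per antibody. The order Hes6 distal, Hes6 proximal, Dll1 holds for each antibody, and the Dll1 site lies near the middle of the lists of antibodies 1 and 3.

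Neither receptor had a shared site. Their 4 peaks were all of antibody 2 and weak, with scores from 50.37 to 69.79, where 50 is the lowest score in the list. Notch1, a receptor of cortical progenitors, had a peak in an intron of its body (chr2:26487671-26488163, score 67.69), 15905 bp downstream of its protein-coding TSS. Its other peaks in the span lay at the starts of neighbouring genes, at 9 bp from the TSS of Inpp5e (score 69.79) and 58 bp from that of Sec16a (score 68.71). Notch2, a receptor expressed in radial glia, had a single intronic peak (chr3:98106601-98106870, score 50.37).

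Ligands had 8 sites, of which 7 were of antibody 2 only. At Dll1, in addition to the intergenic site, antibody 2 gave a peak over the start of the gene (chr17:15375464-15376079), centred 205 bp downstream of the protein-coding TSS, with a score of 163.42. This was the strongest of the 14 antibody 2 only sites. Dll3, a divergent Delta protein that acts within the cell that makes it, had 5 sites, and 2 of them were its own: a peak centred 114 bp upstream of its start (chr7:28302178-28302527, score 143.53) and a peak 744 bp downstream (chr7:28301224-28301765, score 59.51). The remaining 3 lay at the starts of Eid2, Eid2b and Supt5, with scores of 78.06, 102.12 and 90.18. Jag2 had a peak 718 bp downstream of its protein-coding TSS (chr12:112928801-112929316, score 73.92), and Jag1, the Jagged ligand of many epithelial and neural tissues, had none.

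Effectors other than Hes6 had weak peaks or none. Hes1, the classical Notch target in progenitors, had a peak of antibody 2 at chr16:30063863-30064457 with a score of 77.65. It lay 1180 bp upstream of the protein-coding TSS and 224 bp upstream of the distal start of the gene. Hey1 had a peak 94 bp downstream of its start (chr3:8667069-8667256, score 51.7). Hes5, which in the embryonic cortex marks progenitors with active Notch signalling, had no peak within 50 kb. The last site in the Hes6 span, of antibody 2 only, lay 351 bp from the TSS of Per2 (score 78.27).

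Peaks of antibody 2 alone at TSSs were found at several members. They lay within 1000 bp of a TSS of 5 of 10 members (Dll1, Dll3, Jag2, Hes1 and Hey1), against 13.4% of all protein-coding genes. Their scores ran from 51.7 to 163.42. Of the 17 sites in all, 10 lay closest to the TSS of the member itself and 7 closest to that of another gene when protein-coding TSSs were used, 6 of them within 1000 bp of that TSS. The 10 include the shared Dll1 site, which lay 21496 bp from a TSS of Gm7423, nearer than any TSS of Dll1. By class, the receptors had 1 of 4 sites closest to their own TSS, the ligands 5 of 8 and the effectors 4 of 5.

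How often a peak of antibody 2 was met by the other antibodies depended on its score over the whole list. Of its 2116 peaks with scores from 50 to 60, 0.756% overlapped peaks of both others (95% Wilson interval 0.466 to 1.22%), and of the 2390 peaks from 60 to 80, 2.05% did (1.55 to 2.70%). The share was 9.50% (8.30 to 10.9%) from 100 to 150, 32.9% (30.7 to 35.2%) from 150 to 250 and 97.4% (95.5 to 98.5%) at 500 and above. Among peaks within 1000 bp of a TSS, as were 12 of the 14 unshared sites, the shares were lower, at 0.120% from 50 to 60, 0.869% from 60 to 80, 6.06% from 100 to 150, 21.5% from 150 to 250 and 96.9% at 500 and above. The Notch and Hes genes had 3 peaks of antibody 2 in the lowest range and 7 in the next, and none of these 10 was shared. The Dll1 site that was shared and the Dll1 start that was not both fell in the range from 150 to 250. The intervals cover counting error over peaks only. Whether the 14 unshared sites are bound more weakly or are recovered by this antibody alone was not tested.

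**Figure D4:**
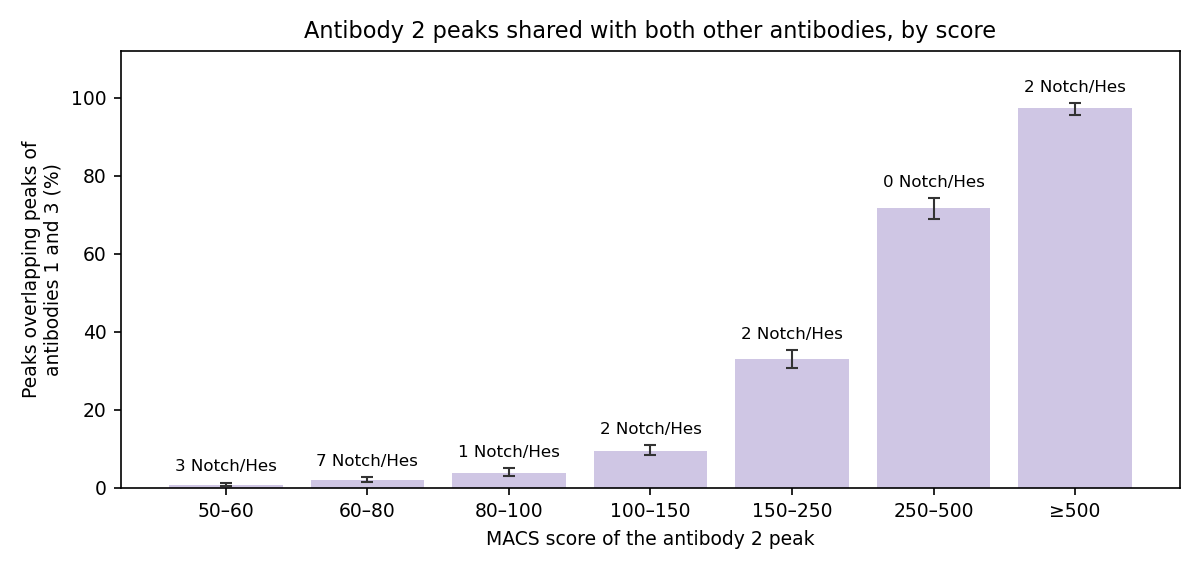
Share of antibody 2 peaks that overlap peaks of both other antibodies, by score (bars, percent, with 95% Wilson intervals), with the number of peaks around the Notch and Hes genes above each bar. The share rises from 0.756% at scores from 50 to 60 to 97.4% at 500 and above, and 10 of the 17 peaks of the group lie in the lowest 2 ranges.

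Set by class, receptors had 10.1 merged sites per Mb of span, ligands 16.8 and effectors 12.2. Shared sites numbered 0, 2.10 and 4.86 per Mb. The union of the spans of all protein-coding genes held 6.36 merged and 1.04 shared sites per Mb. With 2 to 4 genes in a class, and with Hes6 alone giving both shared sites of the effectors and Dll1 that of the ligands, the order of the classes rests on single genes and was not tested.

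E-boxes were counted next. In the central 200 bp, the Hes6 distal site held 4 E-boxes, the Dll1 site 2 and the Hes6 proximal site none, against 0, 0.5 and 2.5 in flanking windows of the same length taken 2000 bp from the site on each side. The central window of the proximal site lay in sequence that antibody 2 alone covered. The stretch of that site common to the 3 antibodies held 2 E-boxes, which this count and the ratio below leave out. The mean was 2 E-boxes per site against 1 in the flanks, a ratio of 2, and all 2088 shared sites gave a ratio of 2.13. The ratio of the 3 sites was not stable: it was 1.14 without antibody 1, 3.5 without antibody 2 and 6 in the central 100 bp. With windows centred on the peaks of each antibody in turn, the ratio over the 3 sites was 2, 1.33 and 1.67 (1.67 ± 0.333, SD, n = 3 antibodies).

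Counted over whole sites, the Hes6 distal site held 5 E-boxes in 731 bp, the proximal site 8 in 1654 bp and the Dll1 site 3 in 548 bp. All 3 E-boxes of the Dll1 site were CAGATG, read on the strand of the gene. Of the 8 E-boxes in the proximal site, 6 lay downstream of the protein-coding TSS, in the part that antibody 2 alone covered, and 4 of the 8 were CAGCTG. The 14 antibody 2 only sites held 1.14 ± 1.17 E-boxes (SD over sites) in their central 200 bp against 1.07 in their flanks, a ratio of 1.07, whereas all 6597 sites of antibody 2 only on the main chromosomes gave 1.54.

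The Dll3 start stood out among these 14 sites. Its 350 bp held 6 E-boxes, 4 of them in the central 200 bp, against 0.5 in the flanks. The 250 bases before the protein-coding start of Dll3, all within the peak, held 5, and are shown because they carry the densest E-boxes of any site in the group. The stretch was chosen for this density. A count of 5 or more was found in 19.3% of the central 300 bp of all shared sites and in 2.10% of 32851 RefSeq promoter windows of 300 bp. The RefSeq window listed for Dll3 lies further downstream, at chr7:28301736-28302035, and held 2 E-boxes, a count that 39.6% of the windows reached. The sequence is the minus strand of chr7:28302239-28302488 (GRCm38/mm10), read towards the start, with E-boxes in capitals.
Dll3 upstream: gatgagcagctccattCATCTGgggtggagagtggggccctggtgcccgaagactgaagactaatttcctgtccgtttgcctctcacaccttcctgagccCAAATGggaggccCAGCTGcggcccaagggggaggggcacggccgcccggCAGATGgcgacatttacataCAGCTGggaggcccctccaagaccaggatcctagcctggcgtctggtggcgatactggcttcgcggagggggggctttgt

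For comparison, the bases before the protein-coding starts of Hes5 and Hes1 are shown because these are the textbook Notch response promoters. No NEUROD2 peak overlapped the stretches shown, but the Hes1 peak described above covered the distal start of that gene. Capitals here mark the core of the RBPJ motif (TGGGAA), searched on both strands. Both lines are the plus strand of GRCm38/mm10, the 250 bases before the protein-coding TSS, at chr4:154960673-154960922 and chr16:30065090-30065339.
Hes5 upstream: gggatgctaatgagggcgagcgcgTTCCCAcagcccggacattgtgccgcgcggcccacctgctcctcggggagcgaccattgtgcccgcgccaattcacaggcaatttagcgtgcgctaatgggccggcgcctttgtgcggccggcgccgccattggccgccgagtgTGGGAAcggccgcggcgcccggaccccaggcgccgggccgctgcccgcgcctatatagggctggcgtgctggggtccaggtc
Hes1 upstream: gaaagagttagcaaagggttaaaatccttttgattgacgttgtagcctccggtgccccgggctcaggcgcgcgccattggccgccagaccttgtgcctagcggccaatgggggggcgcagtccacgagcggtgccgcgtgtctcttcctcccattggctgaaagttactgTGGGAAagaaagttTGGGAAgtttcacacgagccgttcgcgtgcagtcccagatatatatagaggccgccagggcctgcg

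Each of these sequences held 2 RBPJ cores. A count of 2 or more was found in 3.79% of the RefSeq promoter windows. Over the same 250 bases Hes5 held 1 E-box and Hes1 none, and the antibody 2 peak of Hes1 ended 883 bp upstream of the protein-coding TSS. The RBPJ core was not found in the central 300 bp of the Hes6 distal site, while the Dll1 site held 1 and that of the Hes6 proximal site 2, in sequence that antibody 2 alone covered. The sequences printed for the 3 shared sites held none. It was present in 26.6% of the central 300 bp of all shared sites and in 25.6% of the promoter windows, so the shares were close. The E-box was found in 95.3% of the shared sites and 72.3% of the promoter windows. A match is a stretch of letters and not evidence of binding. RefSeq promoter entries matched 8 of the 10 genes.

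The wider pathway was described with 47 further genes, listed by role. A shared site lay in the span of 12 of them (25.5%, against 15.6% of all genes), and a site of any antibody in that of 36 (76.6%, against 55.3%). The spans of some of these genes contain other genes, and 5 of the 47 (10.6%) had a shared site in the gene body or within 1000 bp of a TSS, against 5.41% of all protein-coding genes and 1 of the 10 members (Hes6). The 5 genes were Maml3, a coactivator of the Notch and RBPJ complex, Numbl and Dtx1, which act on Notch within the receiving cell, Neurl1a, a ubiquitin ligase linked to ligand uptake, and Dner, a Delta-like transmembrane protein of neurons.

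Maml3 had the strongest of the sites in a gene body or at a TSS, in an intron (chr3:51701224-51701972), with scores of 396.38, 766.41 and 247.57 for antibodies 1, 2 and 3. Numbl was bound at its promoter, with scores of 98.02, 321.26 and 109.79. Dtx1 had 2 shared sites by this criterion, at 583 bp of a TSS (125.85, 179.2 and 76.21) and at 1305 bp (70.94, 342.46 and 114.58). A further shared site in the span of Dtx1, named after its values were seen, was stronger, with scores of 860.74, 1113.11 and 390.68, and lay 23676 bp outside the gene body, with Rasal1 as the gene with the closest TSS. Each of these scores of Maml3, Numbl and Dtx1 was below that of the Hes6 distal site with the same antibody. In the span of Rfng, a shared site 117 bp from the TSS of Fasn, also named after its values were seen, scored 466.27, 1373.86 and 129.86, above the Hes6 distal site with antibody 2 and below it with the others. The intronic site of Neurl1a had scores of 168.52, 370.24 and 55.48. Dner had an intronic site with scores of 164.87, 206.88 and 53.21 and a site 1012 bp from its start with 69.8, 108.32 and 64.16.

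By role, a shared site was found in the spans of 3 of 4 further ligand-like genes, 2 of 4 genes of ligand endocytosis and 3 of 9 genes of turnover and inhibition. It was found for 1 of 8 proteases, 1 of 8 nuclear complex genes, 1 of 7 effectors, 1 of 5 glycosyltransferases and 0 of 2 receptors. The share over all protein-coding genes was 15.6%, and differences between roles were not tested. Counting only shared sites in the gene body or within 1000 bp of a TSS gave 1 of 4, 1 of 4 and 2 of 9 for the first 3 roles, 1 of 8 for the nuclear complex and 0 for the proteases, effectors, glycosyltransferases and receptors. Several sites of the spans lay at the starts of other genes, such as that of Ncstn at 1 bp from the TSS of Vangl2 and that of Dlk2 at 143 bp from the TSS of Lrrc73.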

How the data were processed

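Single-end reads had been aligned by the authors with Bowtie (mm10), and MACS had been run separately on each NEUROD2 library, with GFP reads as background. The deposited score of a peak is 10 times the negative log10 of the MACS p, and the deposited table of shared sites gives a summed score, which was copied as the authors' pooled value. Read depth is unknown from these files. The libraries of GFP and of input DNA were not used here as values.

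Peaks sharing at least 1 bp were merged, and sites overlapping a GENCODE M21 gene body or the 50 kb on each side were taken. Distances from TSSs were measured from site midpoints. The genes and lists were chosen with earlier results of these data known. All 10 genes are named, with every site of 2 or more antibodies or within 1000 bp of a TSS. E-boxes were counted in the central 200 bp and in flanks at 2000 bp, from GRCm38.p6. No test across features was run. The procedures were tested on simulated data. Python 3.11.15, numpy 2.4.6, scipy 1.17.1 and matplotlib 3.10.9 were used.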

Additional observations from a re-analysis of the deposited data

How the results depend on the processing

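The alternatives comprised narrower and wider spans, a score of at least 100, 50 bp of overlap to merge peaks, only sites closest to the gene's own TSS, the sites of the deposited table, other windows for E-boxes and leaving out each antibody, and 26 of 43 values stayed within 1.5 times the main count or, for the E-box ratio, within 1 SD between antibodies. Hes6 had both its shared sites under each of them, which was fixed in advance where an antibody was left out. Dll1 lost its site with spans of 10 kb and with scores of at least 100, which left 1 gene with a shared site in each case. Merged sites in the spans numbered 10 with 10 kb, 28 with 100 kb, 6 with scores of at least 100 and 10 when only sites closest to the gene's own TSS counted, against 17. Without single antibodies they ranged from 3 (without antibody 2) to 17. A shared site then needed peaks of both remaining antibodies only. The peaks of all 3 antibodies overlap at the 3 shared sites, and no site in the spans had exactly 2 antibodies. The counts of 2 genes and 3 shared sites therefore could not change, although they are among the 26 values. Of the 47 further pathway genes, 7, 20, 5 and 5 (14.9, 42.6, 10.6 and 10.6%) had a shared site under those same 4 settings, beside 7.52%, 23.6%, 7.53% and 6.29% of all protein-coding genes, and 12 to 16 without single antibodies (15.7 to 25.4% of all genes), against 12. The E-box ratio of the 3 sites was 6 in the central 100 bp, 1.45 over whole sites, 1.33 with flanks at 500 bp and 1.6 with scores of at least 100, and ranged from 1.14 (without antibody 1) to 3.5 (without antibody 2), against 2. With 3 sites, this ratio moves with a few E-boxes. The depth behind the scores is unknown, so a missing peak does not show that NEUROD2 was absent.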
